A study of Mus musculus with 12 samples.

Results

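The 46 genes described here, out of 47729 in the deposited table, encode proteins of G2 and mitosis, the end of the cell cycle. They came from a fixed list of symbols, chosen for that function with earlier results of these data known. Their RNA was sequenced in small intestinal stem cells (ISCs) of *Lgr5-EGFP-IRES-CreERT2* mice after cell sorting, in 4 groups of 3 libraries. This allele, carried by all 4 groups, places a green fluorescent protein and a tamoxifen-dependent Cre recombinase under the control of *Lgr5*, the gene that marks ISCs. The mice were 8 to 10 weeks old and of both sexes, with the sex of each library not given in the sources used here. The sorted cells were negative for a viability dye, CD31, CD45, TER119 and CD24, positive for EpCAM and brightest for the fluorescent protein (Lgr5-EGFP hi). The stress mice were restrained for 3 h on 1 day. The control mice (Ctrl) had no restraint and were kept without food and water for the same time. The CORT mice had 1 intraperitoneal injection of the glucocorticoid corticosterone at 5 mg/kg, dissolved in a 20% solution of a cyclodextrin, and the vehicle mice were given that solution alone. The libraries are numbered 1, 2 and 3 in Ctrl, 1+2, 3 and 4+5+6 in stress, 3, 5 and 6 in vehicle and 2, 4 and 5 in CORT, and the joined stress numbers read as cells pooled from several mice. The comparisons asked whether these genes differed between stress and Ctrl, between CORT and vehicle, between the 2 control groups, and between the stress effect and the CORT effect.

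In a dividing cell, Cdk1 bound to cyclin B drives entry into mitosis, after which the Aurora and Polo kinases, the kinetochores, the spindle motors and the condensins arrange and separate the chromosomes. The anaphase-promoting complex then marks cyclins for destruction, and the cell is cut apart by the cytokinesis machinery. Many of these genes are held silent in resting cells by the DREAM complex. They are activated in G2 by its MuvB core together with Mybl2 and Foxm1, through a promoter element named CHR. Their promoters often hold a separate element too, the CCAAT box. Lgr5-positive ISCs lie at the crypt base and are known to divide about daily, and glucocorticoids are the adrenal hormones released under stress. Because RNA was pooled over many cells, a larger share of cells in G2 or mitosis and more RNA per such cell cannot be told apart.

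All 46 genes passed the filter on low counts in every comparison. Libraries held 15934907 to 17135770 estimated counts in Ctrl and stress, 16465961 to 31280267 in vehicle and 29426183 to 69533214 in CORT, so levels were compared as CPM, that is counts divided by the TMM-scaled library size. Together the 46 genes took 0.39 to 0.43% of all counts in Ctrl and 0.47 to 0.54% in stress, and 0.37 to 0.42% of them in vehicle and 0.45 to 0.46% in CORT. The stem cell markers were high, with a summed level of 10616 to 13854 CPM over 6 markers in the 12 libraries. *Olfm4* made up the largest part of this sum, and the median of the 6 markers was 441 to 604 CPM by library. Markers of blood cells summed to at most 6.57 CPM and those of stromal and endothelial cells to at most 4.07 CPM in any library, and *Lyz2*, *Col3a1* and *Cdh5* were among the genes at 0 counts in all 3 Ctrl libraries.

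Levels between genes were compared in FPKM, which is per length of transcript. In the Ctrl libraries *Ube2c*, the ubiquitin-conjugating enzyme of the anaphase-promoting complex, had the highest level with 145 ± 11.2 FPKM (SD, n = 3). It was followed by *Cks2*, a small subunit that binds Cdk1, with 81.7 ± 4.27 FPKM, by *Top2a*, which untangles DNA, with 72.6 ± 0.77 FPKM, and by *Hjurp*, the chaperone that loads the centromere histone, with 69.03 ± 3.90 FPKM. The median over the 46 genes was 20.7 FPKM and the lowest level was that of *G2e3*, a ubiquitin ligase, with 5.12 ± 0.33 FPKM. Of the 45 pairs of neighbours in this order, 41 had overlapping ranges of mean ± 1 SD, so most of the order was not separated by the spread between libraries. The leading member among the mitotic kinases was *Aurkb*, the Aurora kinase of the centromere, with 36.4 ± 1.12 FPKM. Among the spindle genes it was *Tacc3*, which stabilises kinetochore microtubules, with 27.1 ± 1.89 FPKM.

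Promoter sequences of 39 of the 46 genes were found in RefSeq (mouse build GRCm38.p6), giving 42 windows from 250 bases before to 50 bases after a transcription start. The windows were searched on both strands for the CHR letters TTTGAA or TTCGAA and for CCAAT. A CHR was present in 32 of 42 windows (76.2%), against 19.2% of all 32851 mouse promoter windows of that length. A CCAAT was present in 33 windows (78.6%), against 37.4% of all promoters, and both motifs in 28 windows (66.7%), against 7.52%. Of 44 CHR matches, 1 shared bases with a CCAAT match, in *Cdca8*. In 133 windows of 113 further genes of G2 and mitosis the shares were 42.9% for the CHR and 56.4% for CCAAT. A match of letters is a description and no proof of a binding site. The 4 promoters shown belong to the genes with the smallest p-values in stress among those that held both motifs, with the CHR and CCAAT letters of either strand in capitals and the transcription start after 250 bases. They were *Cenpa* on the plus strand at chr5:30666636-30666935, *Top2a* on the minus strand at chr11:99024140-99024439, *Mki67* on the minus strand at chr7:135716330-135716629, and *Ncapd2* on the minus strand at chr6:125191537-125191836, each written from 5′ to 3′ of its gene.
Cenpa: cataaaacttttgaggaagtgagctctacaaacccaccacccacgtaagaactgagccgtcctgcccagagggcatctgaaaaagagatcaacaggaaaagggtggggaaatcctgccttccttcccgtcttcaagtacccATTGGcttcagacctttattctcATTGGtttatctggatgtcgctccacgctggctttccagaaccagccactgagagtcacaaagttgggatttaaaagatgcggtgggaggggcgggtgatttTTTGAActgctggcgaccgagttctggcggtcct
Top2a: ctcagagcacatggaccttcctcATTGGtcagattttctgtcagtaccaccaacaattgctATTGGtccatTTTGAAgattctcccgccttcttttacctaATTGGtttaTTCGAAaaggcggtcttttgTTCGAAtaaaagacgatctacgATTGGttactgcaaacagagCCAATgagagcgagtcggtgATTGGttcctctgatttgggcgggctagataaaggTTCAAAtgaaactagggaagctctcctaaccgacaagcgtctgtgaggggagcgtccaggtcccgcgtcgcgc
Mki67: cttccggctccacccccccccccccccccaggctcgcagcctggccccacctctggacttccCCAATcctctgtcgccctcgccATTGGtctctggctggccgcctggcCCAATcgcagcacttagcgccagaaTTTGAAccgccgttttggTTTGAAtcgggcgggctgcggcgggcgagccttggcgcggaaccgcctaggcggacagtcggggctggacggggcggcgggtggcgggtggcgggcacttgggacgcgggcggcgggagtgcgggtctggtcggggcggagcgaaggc
Ncapd2: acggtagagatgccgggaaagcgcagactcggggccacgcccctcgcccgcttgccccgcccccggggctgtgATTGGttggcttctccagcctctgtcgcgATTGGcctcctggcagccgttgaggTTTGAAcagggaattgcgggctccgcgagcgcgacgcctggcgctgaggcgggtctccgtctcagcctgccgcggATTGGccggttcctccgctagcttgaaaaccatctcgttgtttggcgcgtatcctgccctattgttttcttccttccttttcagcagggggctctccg
*Top2a* held 4 CHR and 6 CCAAT matches, the most CHR matches of the 42 windows. In *Cenpa* the CHR lay behind the RefSeq start, whereas in *Top2a*, *Mki67* and *Ncapd2* all matches lay before it. The deposited coordinates start *Cenpa* at 30666777 and *Ncapd2* at 125191701, which is inside these windows and before the RefSeq start. For these genes the placement therefore holds for the RefSeq start only. Not every gene that rose had both motifs. *Ccnb1* and *Cenpe* held CCAAT without a CHR, *Kif20b* and *Ndc80* a CHR without CCAAT, and *Nusap1*, *Nuf2* and *Birc5* neither set of letters in this window.

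In stress compared with Ctrl, G2 and mitosis genes were higher as a group, by a modest amount. All 46 had a log2 fold change above 0, against 49.5% of all genes tested, and their median was 0.35 on the log2 scale against -0.0028 for all genes. Of the 46 genes, 8 rose at an adjusted p below 0.05 (17.4%), where 1.3% of all genes were called higher and 1.89% in either direction, and 0 fell in edgeR, DESeq2 or at an unadjusted p below 0.05, against 0.59% of all genes called lower and 6.79% lower at an unadjusted p. The 8 were *Cenpe*, *Cenpa*, *Top2a*, *Ccnb1*, *Nusap1*, *Mki67*, *Ncapd2* and *Ckap2l*. None of the 46 was past 2-fold, against 0.612% of all genes called higher beyond it, and the largest change was that of *Cenpe* at 1.60-fold. At an unadjusted p below 0.05, 35 genes were higher, against 8.39% of all genes. In 33 genes (71.7%) all 3 stress libraries lay above all 3 Ctrl libraries, against 10.1% of all genes, and in 0 genes all lay below, against 10.3%. The count of genes past the threshold changed with single libraries, as did the share of all genes called higher. The count was 0 without Ctrl 1, Ctrl 3 or stress 1+2, against 0.318%, 0.297% and 0.433% of all genes. It was 2 without Ctrl 2 or stress 4+5+6, against 0.325% and 0.568%, and 15 without stress 3, against 3.94%. The median stayed between 0.31 and 0.41. Without a filter on low counts the count was 0, against 0.169% of all genes, and with DESeq2 it was 20, against 2.94%.

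In CORT compared with vehicle, 39 of the 46 genes were higher and 7 lower, against 52.1% of all genes higher, with a median log2 fold change of 0.27 against 0.01 for all genes. Of the 46 genes, 10 rose (21.7%), where 3.64% of all genes were called higher and 8.13% in either direction, and 0 fell in edgeR, DESeq2 or at an unadjusted p below 0.05, against 4.5% of all genes called lower and 12.1% lower at an unadjusted p. The 10 were *Nusap1*, *Kif20b*, *Kif11*, *Ndc80*, *Nuf2*, *Ube2c*, *Top2a*, *Birc5*, *Cenpf* and *Cenpa*. None was past 2-fold, against 1.13% of all genes called higher beyond it, and the largest change was that of *Ndc80* at 1.67-fold. At an unadjusted p below 0.05, 26 genes were higher, against 11.2% of all genes. In 30 genes (65.2%) all CORT libraries lay above all vehicle libraries, against 15.7% of all genes, and in 1 gene, *Cdc20*, all lay below, against 13% of all genes. The count past the threshold was 6 without vehicle 3 or vehicle 5, against 3.17% and 2.57% of all genes called higher. It was 4 without vehicle 6, CORT 2 or CORT 4, against 2.75%, 2.5% and 1.56%, and 2 without CORT 5, against 2.16%. *Nusap1* and *Kif20b* kept an adjusted p below 0.05 with each library left out in turn. On the log2(FPKM + 1) scale 4 genes passed, against 2.62% of all genes called higher, with a median of 0.19. Without a filter on low values 0 passed there, against 0.964%.

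**Figure D1:**
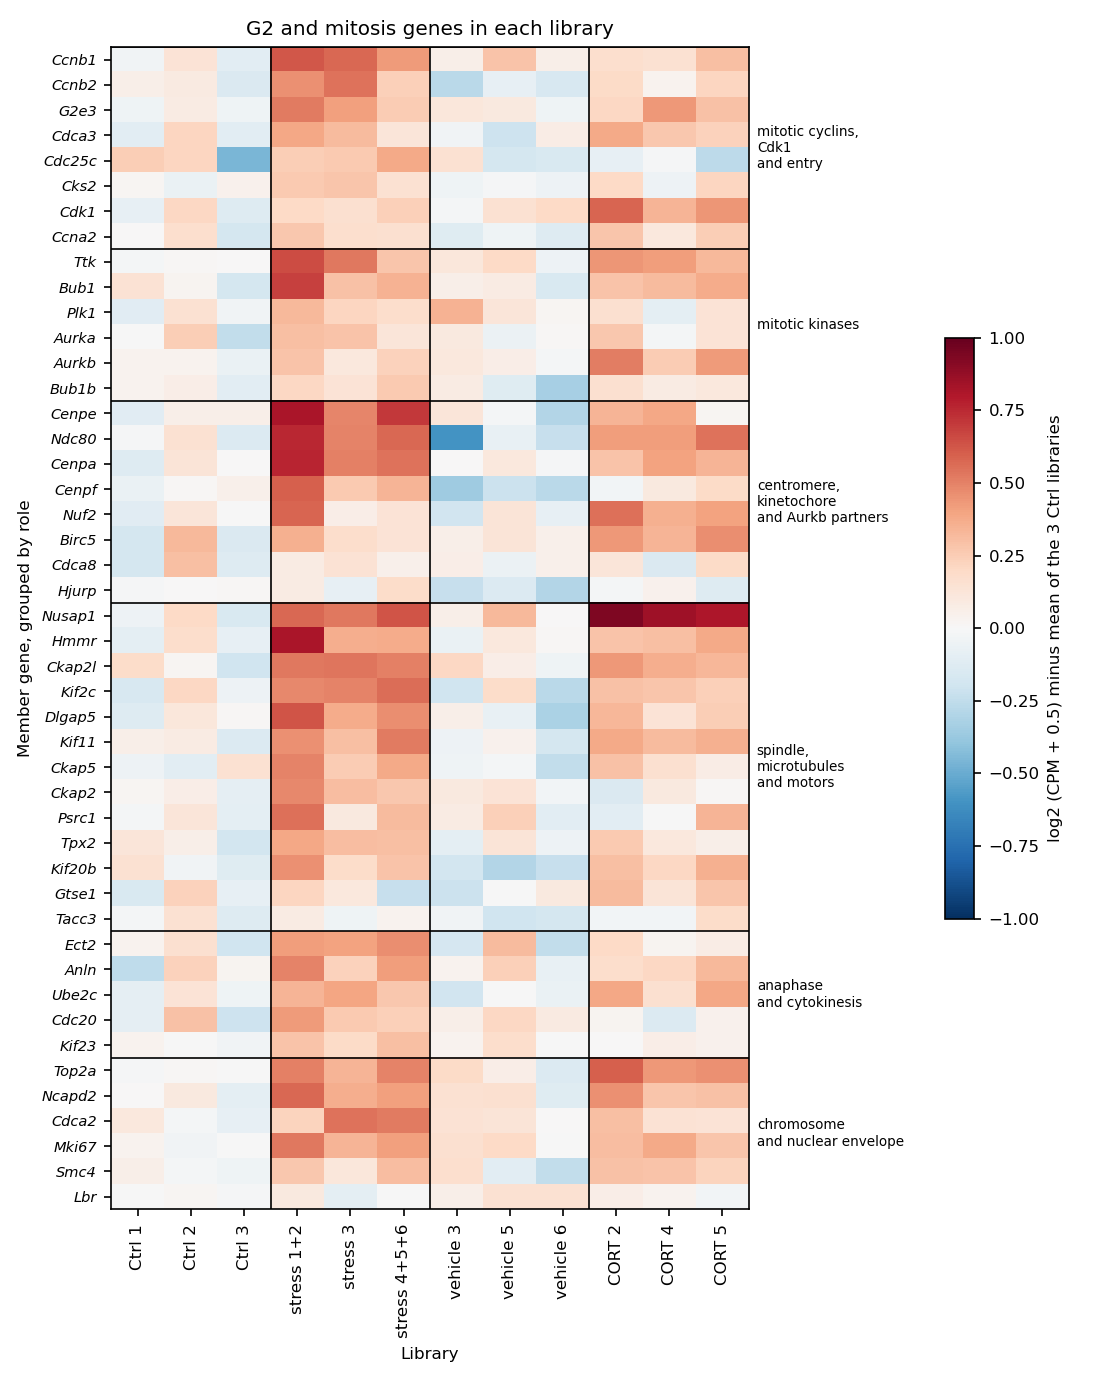
Level of each of the 46 genes (rows, grouped by role and ordered within a role by the stress fold change) in each of the 12 libraries (columns), as log2 of CPM + 0.5 minus the mean of the 3 Ctrl libraries. Red is above the Ctrl mean; the stress columns are red in nearly every row, with medians of 0.29 to 0.46, the CORT columns have medians of 0.16 to 0.29, and the vehicle columns lie near 0 with medians of -0.06 to 0.08.

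The map of levels by library showed how the genes moved together within a library. The median of the 46 genes against the Ctrl mean was 0.46 in stress 1+2, 0.29 in stress 3 and 0.30 in stress 4+5+6. In CORT it was 0.29, 0.16 and 0.25 in libraries 2, 4 and 5, and all 6 treated libraries lay above all 6 control libraries, of which Ctrl 2 was highest with 0.10. The library with the highest level of a gene was a stress library for 35 of the 46 genes, and stress 1+2 alone for 22. Ctrl 3 and vehicle 6 each held the lowest level of 13 genes. Summed over the 46 genes, levels were 3823 to 4244 CPM in Ctrl and 4806 to 5285 CPM in stress. They were 3756 to 4148 CPM in vehicle and 4626 to 4907 CPM in CORT. The treated groups therefore overlapped with neither control group in the sum. Within a group the median coefficient of variation of the 46 genes was 9.03% for Ctrl, 7.54% for stress, 8.18% for vehicle and 6.36% for CORT.

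The 8 genes of the mitotic cyclins, Cdk1 and entry into mitosis had median log2 fold changes of 0.27 in stress and 0.26 in CORT. In edgeR 1 of 8 rose in stress, against 1.3% of all genes, and 0 in CORT, against 3.64%. At an unadjusted p below 0.05, 5 were higher in stress, against 8.39% of all genes, and 5 in CORT, against 11.2%. *Ccnb1*, which encodes cyclin B1, had 75.1, 84.7 and 71.4 CPM in Ctrl and 119, 114 and 104 CPM in stress libraries. The groups did not overlap, and the log2 fold change was 0.55 ± 0.10 (SE, edgeR, adjusted p = 0.0227). In vehicle it had 80.1, 93.8 and 80.1 CPM and in CORT 86.5, 85.4 and 95.01 CPM, with overlapping groups and a log2 fold change of 0.05 ± 0.09 (SE, edgeR, adjusted p = 0.799), its 95% interval running from -0.15 to 0.26. *Cdk1*, the mitotic kinase itself, had the largest change of these genes in CORT. Its levels were 71.6, 80.7 and 83.7 CPM in vehicle and 109, 92.3 and 98.8 CPM in CORT, without overlap, and it missed the threshold at 0.33 ± 0.09 (SE, edgeR, adjusted p = 0.0581). In stress the levels of *Cdk1* were 83.6, 81.5 and 86.04 CPM against 68.8, 83.9 and 66.6 CPM in Ctrl, an overlap with Ctrl 2. *Ccnb2*, cyclin B2, was past the threshold in neither, at 0.42 ± 0.11 (SE, edgeR, adjusted p = 0.0878) in stress and 0.30 ± 0.08 (SE, edgeR, adjusted p = 0.061) in CORT.

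Of the 6 mitotic kinases, 0 passed edgeR's threshold in either comparison, with medians of 0.23 in stress and 0.25 in CORT. At an unadjusted p below 0.05, 5 were higher in stress (8.39% of all genes) and 3 in CORT (11.2%). In 5 the stress libraries lay above Ctrl without overlap, against 10.1% of all genes, and in 4 the CORT libraries lay above vehicle, against 15.7%. *Ttk*, the spindle checkpoint kinase also called Mps1, had the largest stress change. It had 25.8, 26.2 and 26.2 CPM in Ctrl and 41.2, 37.7 and 31.7 CPM in stress, each stress library being higher, at a log2 fold change of 0.50 ± 0.13 (SE, edgeR, adjusted p = 0.0911). *Aurkb* had the largest change in CORT, with 78.7, 76.8 and 72.1 CPM in vehicle and 105, 87.1 and 98.6 CPM in CORT, at 0.33 ± 0.09 (SE, edgeR, adjusted p = 0.0514). All 3 CORT libraries were higher for this gene too.

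Among the 8 genes of the centromere, the kinetochore and the partners of Aurkb, 2 rose in stress and 5 in CORT. Of all genes, 1.3% were called higher in stress and 3.64% in CORT. The medians of the 8 genes were 0.35 in stress and 0.31 in CORT. *Cenpa*, the histone H3 variant that marks the centromere, had 68.9, 82.7 and 75.7 CPM in Ctrl and 128, 107 and 110.1 CPM in stress. It had 75.6, 81.2 and 74.99 CPM in vehicle and 92.4, 99.8 and 95.5 CPM in CORT. Treated and control libraries did not overlap in either comparison, and the log2 fold changes were 0.61 ± 0.10 (SE, edgeR, adjusted p = 0.02) in stress and 0.29 ± 0.07 (SE, edgeR, adjusted p = 0.0423) in CORT. *Cenpe*, a kinesin that carries chromosomes to the spindle equator, rose in stress from 41.9, 47.1 and 47.2 CPM to 80.03, 63.7 and 74.2 CPM, at 0.68 ± 0.11 (SE, edgeR, adjusted p = 0.0166). In CORT 2 and CORT 4 it had 57.6 and 59.5 CPM against 49.3, 44.6 and 36.8 CPM in vehicle, and CORT 5 lay within the vehicle range, at 0.30 ± 0.13 (SE, edgeR, adjusted p = 0.211).

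*Ndc80* and *Nuf2* encode partners in the complex that holds microtubules at the kinetochore. *Ndc80* had 11.99, 17.5 and 15.6 CPM in vehicle and 24.7, 24.8 and 27.03 CPM in CORT, at 0.74 ± 0.15 (SE, edgeR, adjusted p = 0.0198). In stress it had 31.3, 26.2 and 27.7 CPM against 18.2, 20.5 and 16.7 CPM in Ctrl, also without overlap, and missed the threshold at 0.62 ± 0.14 (SE, edgeR, adjusted p = 0.0613). Vehicle 3, with the lowest *Ndc80* level of the 12 libraries, entered the CORT comparison. *Nuf2* rose in CORT from 29.8, 37.5 and 32.3 CPM to 50.4, 44.1 and 45.5 CPM, at 0.47 ± 0.11 (SE, edgeR, adjusted p = 0.0298), while in stress it had 51.5, 35.8 and 37.6 CPM against 31.6, 37.3 and 34.05 CPM in Ctrl, with overlapping groups. *Cenpf*, a large kinetochore protein, rose in CORT at 0.35 ± 0.09 (SE, edgeR, adjusted p = 0.0371), against vehicle libraries that all lay below Ctrl. *Birc5*, survivin, the partner of Aurkb, rose in CORT at 0.31 ± 0.07 (SE, edgeR, adjusted p = 0.033). It passed the threshold in 0 of the 6 fits that each left out 1 library. *Hjurp* had 317 ± 2.80 CPM in Ctrl and 332 ± 30.98 CPM in stress (SD, n = 3), with overlapping groups and a log2 fold change of 0.07 ± 0.09 (SE, edgeR, adjusted p = 0.784).

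**Figure D2:**
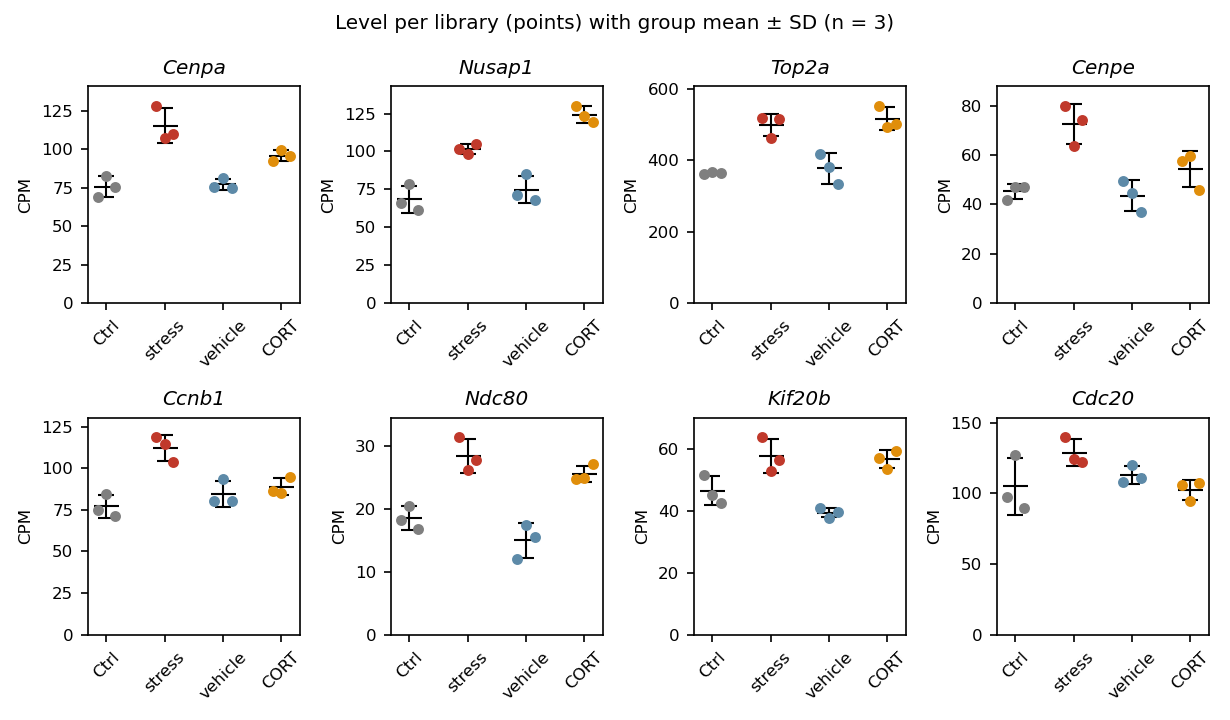
Level in CPM (vertical axes from 0) of 8 genes in each library, as points, with the mean and SD of the 3 libraries of each group in black. *Cenpa*, *Nusap1* and *Top2a* lie higher in stress and in CORT than in both control groups. *Ccnb1* lies higher in stress than in both control groups, while in CORT it lies above Ctrl and overlaps with vehicle. *Cdc20* in CORT lies just below vehicle.

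Of the 13 genes of the spindle, microtubules and motors, 2 rose in stress, against 1.3% of all genes, and 3 in CORT, against 3.64%. The medians of the 13 genes were 0.38 in stress and 0.28 in CORT. *Nusap1*, which bundles spindle microtubules, had the largest change of these genes in both. Its levels were 65.8, 78.4 and 61.1 CPM in Ctrl and 102, 98.6 and 105 CPM in stress, at a log2 fold change of 0.58 ± 0.10 (SE, edgeR, adjusted p = 0.024). They were 71.1, 85.3 and 68.2 CPM in vehicle and 130.2, 123 and 119.6 CPM in CORT, at 0.71 ± 0.10 (SE, edgeR, adjusted p = 0.0027), and the CORT libraries were the 3 highest of all 12. Exons of *Nusap1* share bases with exons of *Oip5* on the opposite strand, a gene that also rose in CORT, and since no source states that counts were made by strand, reads of the pair cannot be told apart there. *Kif11*, the motor that keeps spindle poles apart, rose in CORT from 109.7, 117 and 100.3 CPM to 148, 141 and 145 CPM, at 0.39 ± 0.08 (SE, edgeR, adjusted p = 0.0193), and in stress was at 0.43 ± 0.10 (SE, edgeR, adjusted p = 0.0564). *Kif20b*, a kinesin of late mitosis, rose in CORT from 40.8, 37.8 and 39.5 CPM to 57.2, 53.7 and 59.4 CPM, at 0.51 ± 0.08 (SE, edgeR, adjusted p = 0.00645). In stress it was at 0.31 ± 0.11 (SE, edgeR, adjusted p = 0.218). *Ckap2l*, a spindle protein, rose in stress at 0.52 ± 0.11 (SE, edgeR, adjusted p = 0.0486), with 41.3 ± 5.52 CPM in Ctrl and 59.2 ± 0.709 CPM in stress (SD, n = 3). *Tacc3* overlapped between stress and Ctrl, at 0.03 ± 0.10 (SE, edgeR, adjusted p = 0.936).

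The 5 genes of anaphase and cytokinesis had medians of 0.34 in stress and 0.09 in CORT. In stress 0 rose, against 1.3% of all genes. All 5 were higher in stress at an unadjusted p below 0.05, against 8.39% of all genes. In CORT 1 rose, against 3.64% of all genes. The gene that rose was *Ube2c*, with 135, 154 and 147 CPM in vehicle and 202, 173 and 202 CPM in CORT, at 0.38 ± 0.09 (SE, edgeR, adjusted p = 0.0307). In stress *Ube2c* did not overlap either, with 196, 203 and 186 CPM against 145, 169.7 and 150.2 CPM, at 0.34 ± 0.09 (SE, edgeR, adjusted p = 0.0982). *Cdc20*, the activator of the anaphase-promoting complex, had 108, 119.9 and 110.5 CPM in vehicle and 106, 94.4 and 107 CPM in CORT, every CORT library being lower, at -0.16 ± 0.08 (SE, edgeR, adjusted p = 0.276). In stress it had 139.7, 124 and 122 CPM against 97.4, 127 and 89.8 CPM, overlapping through Ctrl 2, at 0.30 ± 0.13 (SE, edgeR, adjusted p = 0.307). *Kif23*, a motor of the cleavage midzone, was at 0.26 ± 0.08 (SE, edgeR, adjusted p = 0.149) in stress and -0.05 ± 0.08 (SE, edgeR, adjusted p = 0.739) in CORT. *Ect2*, which activates RhoA at the cleavage furrow, was at 0.42 ± 0.10 (SE, edgeR, adjusted p = 0.0715) in stress, without overlap between groups, and at 0.09 ± 0.14 (SE, edgeR, adjusted p = 0.761) in CORT.

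Among the 6 genes of chromosome structure and the nuclear envelope, 3 rose in stress and 1 in CORT, with medians of 0.44 and 0.22. Of all genes, 1.3% were called higher in stress and 3.64% in CORT. *Top2a* had 362, 367 and 364 CPM in Ctrl and 517, 462 and 515 CPM in stress, at 0.45 ± 0.08 (SE, edgeR, adjusted p = 0.0218). It had 416, 382 and 332 CPM in vehicle and 552, 492 and 501 CPM in CORT, at 0.43 ± 0.10 (SE, edgeR, adjusted p = 0.0328). The SD of the Ctrl libraries was 2.75 CPM for this gene, and both treated groups lay above both control groups. *Mki67*, the chromosome surface protein Ki-67, rose in stress from 258, 245 and 251 CPM to 362, 319 and 335 CPM, at 0.43 ± 0.08 (SE, edgeR, adjusted p = 0.0282). In CORT it had 312, 327 and 305 CPM against 281, 288 and 250.2 CPM in vehicle, without overlap, and missed the threshold at 0.18 ± 0.08 (SE, edgeR, adjusted p = 0.226). *Ncapd2*, a condensin subunit, rose in stress from 184, 196 and 172 CPM to 273, 236 and 244 CPM, at 0.45 ± 0.09 (SE, edgeR, adjusted p = 0.0372), and in CORT was at 0.26 ± 0.10 (SE, edgeR, adjusted p = 0.156). *Lbr*, the lamin B receptor of the inner nuclear membrane, was nearest to 0 of the 46 in stress, at a log2 fold change of 0.0012 with a 95% interval from -0.18 to 0.19.

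**Figure D3:**
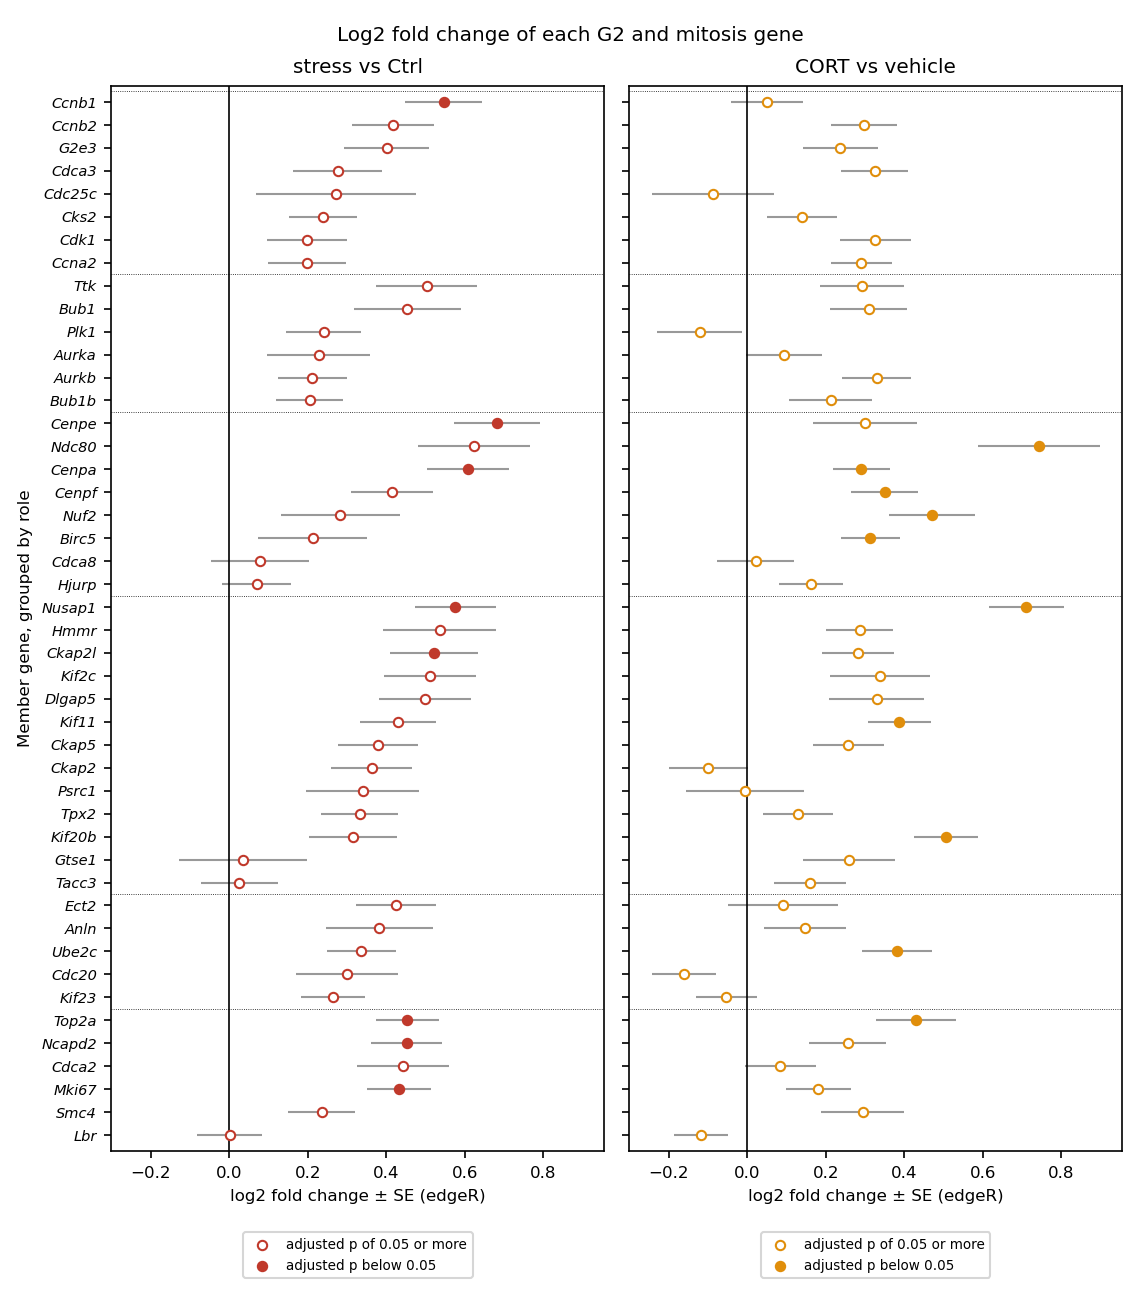
Log2 fold change (horizontal axis) with its standard error for each of the 46 genes, in stress against Ctrl (left) and CORT against vehicle (right), grouped by role. Filled points passed an adjusted p of 0.05, which 8 did in stress and 10 in CORT, and the left panel has every point above 0 while the right has 7 below.

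The same 3 genes, *Nusap1*, *Top2a* and *Cenpa*, passed the threshold in both comparisons, which is 37.5% of the 8 stress genes and 30% of the 10 CORT genes. The matching share over all genes was not counted, so these percentages are a description only. The overlap of 3 genes rested on single libraries. Of the 6 fits that each left out 1 library, *Cenpa* passed in 2 in stress and 0 in CORT, *Top2a* in 1 in each comparison, and *Nusap1* in 2 in stress and 6 in CORT. Of the 8 stress genes, 0 passed in edgeR in all 6 of these fits. In 22 of the 46 genes (47.8%) treated libraries lay above control libraries without overlap in both comparisons, against 3.96% of the 13627 genes tested in both. Such lists do not show that the effects differed, which was tested as the difference between the stress and the CORT log2 fold changes over the 12 libraries. In edgeR 0 of the 46 genes passed this test, against 0.388% of all genes. In DESeq2 1 of 46 did, with the larger change in stress, against 1.84% of all genes in that direction. In edgeR 8 had an unadjusted p below 0.05 (7.01% of all genes had one in that direction), all with the larger change in stress. The 5 smallest p-values belonged to *Ccnb1* with a difference of 0.49 ± 0.13 (SE, edgeR, adjusted p = 0.121), *Ckap2*, a spindle protein, with 0.46 ± 0.14 (SE, edgeR, adjusted p = 0.176), *Kif23* with 0.31 ± 0.10 (SE, edgeR, adjusted p = 0.208), *Cdc20* with 0.46 ± 0.16 (SE, edgeR, adjusted p = 0.245) and *Cenpa* with 0.31 ± 0.13 (SE, edgeR, adjusted p = 0.319). *Ckap2* had 55.2, 48.96 and 47.7 CPM in stress and 39.9, 41.4 and 37.1 CPM in Ctrl, but 35.6, 42.3 and 39.8 CPM in CORT and 42.2, 43.4 and 38.7 CPM in vehicle, and overlapped between CORT and vehicle.

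Between vehicle and Ctrl 23 genes were higher and 23 lower, where 50.3% of all genes were higher, with a median of -0.0036 against 0.0019 for all genes. Of the 46 genes, 0 passed the threshold in edgeR, against 0.799% of all genes, and 0 in DESeq2, while 3 had an unadjusted p below 0.05, all lower in vehicle, as did 4.93% of all genes. These were *Cenpf* at -0.28 ± 0.09 (SE, edgeR, adjusted p = 0.205), *Hjurp* at -0.22 ± 0.08 (SE, edgeR, adjusted p = 0.296) and *Kif20b* at -0.24 ± 0.11 (SE, edgeR, adjusted p = 0.439). *Cenpf* had 61.9, 65.3 and 67.1 CPM in Ctrl, 50.6, 55.6 and 53.7 CPM in vehicle and 63.4, 69.3 and 74.1 CPM in CORT, so that the CORT libraries overlapped with Ctrl. The next in order were *Ccnb2* at -0.18 ± 0.09 (SE, edgeR, adjusted p = 0.54) and *Ndc80* at -0.30 ± 0.17 (SE, edgeR, adjusted p = 0.597), and for the latter vehicle and Ctrl overlapped.

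Markers of other cells and of the stem cells themselves moved with the comparisons. The summed level of 6 enterocyte markers was 440 to 483 CPM in Ctrl and 691 to 1992 CPM in stress, with 6 of 6 markers higher, 5 of them past the threshold, and a median log2 fold change of 3.20. None of the 6 was at 0 counts in a whole group. In CORT the sum was 482 to 528 CPM against 381 to 429 CPM in vehicle, with 2 of 6 higher, 1 past the threshold. The summed level of 6 Paneth cell markers was 135 to 172 CPM in Ctrl and 168 to 261 CPM in stress, with 6 of 6 higher, 1 past the threshold, and 105 to 118 CPM in CORT against 185 to 213 CPM in vehicle, with 6 of 6 lower, 4 past it. Goblet cell markers were higher in 5 of 6 in stress, 1 past the threshold, and in 3 of 6 in CORT. Tuft cell markers summed to 10.9 to 13.3 CPM in Ctrl and 4.87 to 9.69 CPM in stress, where 3 of the 3 tested were lower at a median of -0.76 with none past edgeR's threshold, and *Il25* was at 0 counts in all 4 groups. In CORT the tuft cell sum was 4.13 to 7.21 CPM against 6.56 to 8.16 CPM in vehicle, and *Pou2f3*, the tuft cell transcription factor, was lower at -1.14 ± 0.27 (SE, edgeR, adjusted p = 0.0317). Enteroendocrine markers were lower in 5 of 6 in either comparison, none past edgeR's threshold. The endothelial marker *Pecam1* was higher in CORT at 2.12 ± 0.54 (SE, edgeR, adjusted p = 0.0427), with at most 3.25 CPM in any library.

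The 6 stem cell markers had median log2 fold changes of -0.07 in stress and -0.22 in CORT. In stress 2 were higher and 4 lower, and in CORT 1 was higher and 5 lower. Past the threshold, 1 was lower in stress and 3 in CORT. The 2 higher in stress were *Olfm4* at 0.23 ± 0.11 (SE, edgeR, adjusted p = 0.362) and *Slc12a2* at 0.21 ± 0.11 (SE, edgeR, adjusted p = 0.405). *Ascl2*, a transcription factor of ISCs, had 147, 137 and 146 CPM in Ctrl and 53.4, 68.5 and 61.4 CPM in stress, at -1.23 ± 0.10 (SE, edgeR, adjusted p = 0.000336). It had 148, 170.0 and 164 CPM in vehicle and 60.2, 76.8 and 108 CPM in CORT, at -0.998 ± 0.18 (SE, edgeR, adjusted p = 0.0114). Treated and control libraries of *Ascl2* did not overlap in either comparison. In CORT *Lgr5* was also lower at -0.43 ± 0.10 (SE, edgeR, adjusted p = 0.0277), as was *Smoc2* at -0.31 ± 0.08 (SE, edgeR, adjusted p = 0.0474), while in stress both overlapped with Ctrl. The share of mitochondrial counts ran from 1.45 to 3.62% over the 12 libraries. The part of these markers and of this share in the levels of the G2 and mitosis genes was not tested.

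Another 137 genes of the same processes were examined in the same way. Their list was written by function with earlier results of these data known. In stress 5 of 137 rose (3.65%), against 1.3% of all genes, and 0 fell, against 0.59%. At an unadjusted p below 0.05, 3 were lower in stress, against 6.79% of all genes. In CORT 27 rose (19.7%), against 3.64% of all genes, and 0 fell, against 4.5%. At an unadjusted p below 0.05, 0 were lower in CORT, against 12.1% of all genes. The median log2 fold changes were 0.10 in stress and 0.21 in CORT. The further spindle and cytokinesis genes had medians of 0.33 in stress and 0.21 in CORT, the kinetochore and checkpoint genes 0.08 and 0.37, and the sister chromatid cohesion genes 0.19 and 0.15. The anaphase-promoting complex had -0.03 and -0.0035. Genes that control the transcription of this program had -0.09 in stress and 0.18 in CORT. Of the 5 that rose in stress, 4 were cytokinesis or spindle genes, namely the kinase *Cit* at 0.69 ± 0.09 (SE, edgeR, adjusted p = 0.00493) and the kinesins *Kif20a* at 0.55 ± 0.10 (SE, edgeR, adjusted p = 0.0235), *Kif4* at 0.53 ± 0.10 (SE, edgeR, adjusted p = 0.0304) and *Kif18a* at 0.67 ± 0.14 (SE, edgeR, adjusted p = 0.0475). *Cit* had 46.5, 52.4 and 51.1 CPM in Ctrl and 83.5, 77.3 and 81.2 CPM in stress, with no overlap. The other was the cohesin subunit *Rad21* at 0.38 ± 0.08 (SE, edgeR, adjusted p = 0.0456).

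The 6 further genes with the smallest p-values in CORT came from several processes. *Ncapg2*, a condensin subunit, had 47.8, 47.1 and 47.7 CPM in vehicle and 74.4, 75.7 and 66.6 CPM in CORT, at 0.58 ± 0.08 (SE, edgeR, adjusted p = 0.00224). *Wee1*, the kinase that holds Cdk1 inactive, had 62.04, 64.4 and 62.8 CPM and 122, 106 and 91.4 CPM, at 0.73 ± 0.10 (SE, edgeR, adjusted p = 0.00299). The vehicle libraries varied little, with SDs of 0.39 and 1.23 CPM, and each CORT library of both genes was higher. The others were *Oip5*, which helps place the centromere histone, at 0.92 ± 0.13 (SE, edgeR, adjusted p = 0.0041), *Esco2*, which acetylates cohesin, at 0.68 ± 0.10 (SE, edgeR, adjusted p = 0.00413), *Mad2l1*, the spindle checkpoint protein Mad2, at 0.50 ± 0.08 (SE, edgeR, adjusted p = 0.00607), and *E2f8*, a repressor of E2F targets, at 0.47 ± 0.08 (SE, edgeR, adjusted p = 0.00644). *Cdkn1a*, the Cdk inhibitor p21, had the largest log2 fold change of the 27 in CORT and was picked after its values were seen. It had 4.73, 9.31 and 8.88 CPM in vehicle and 40.8, 33.8 and 15.7 CPM in CORT, at 1.95 ± 0.35 (SE, edgeR, adjusted p = 0.011), and 9.42, 8.74 and 6.12 CPM in Ctrl and 16.6, 9.65 and 33.1 CPM in stress, at 1.29 ± 0.39 (SE, edgeR, adjusted p = 0.139). *Foxm1* was at 0.19 ± 0.09 (SE, edgeR, adjusted p = 0.348) in stress and 0.31 ± 0.10 (SE, edgeR, adjusted p = 0.109) in CORT. *Mybl2* was at 0.01 ± 0.12 (SE, edgeR, adjusted p = 0.97) in stress and 0.26 ± 0.09 (SE, edgeR, adjusted p = 0.103) in CORT. Between vehicle and Ctrl, and in the difference of the effects, 0 of the 137 passed in edgeR. At an unadjusted p below 0.05, 3 were lower in vehicle than in Ctrl, against 4.93% of all genes, and for the difference 3 of the 137 had the higher log2 fold change in stress, against 7.01% of all genes, and 19 in CORT, against 5.47%.

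**Figure D4:**
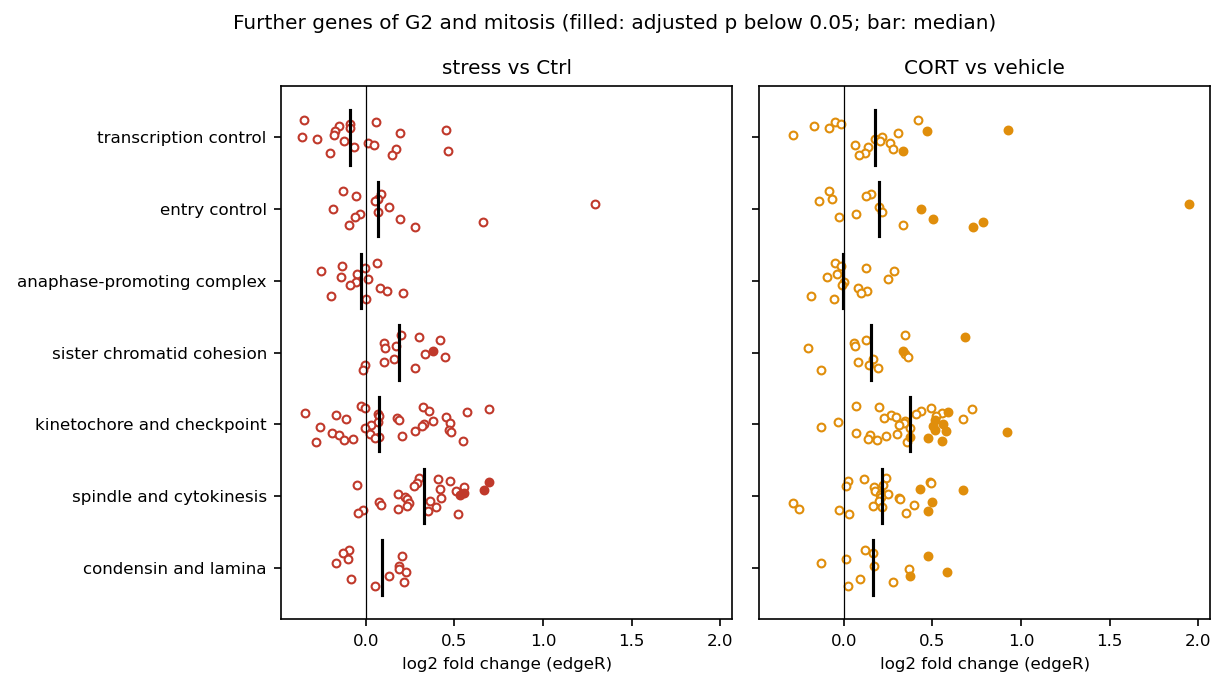
Log2 fold change of 137 further genes of G2 and mitosis (points, in rows by process) in stress against Ctrl and CORT against vehicle, with the median of each process as a black bar and genes past an adjusted p of 0.05 filled. The bar of the kinetochore and checkpoint genes is at 0.08 in stress and 0.37 in CORT, and *Cdkn1a* is the point farthest right in both panels.

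The genes lay on 18 chromosomes, with 8 on chromosome 2, and 37 of 46 had the same coordinates in GENCODE M21 (GRCm38) as in the deposited table. Exons of 13 genes share bases with another gene, and since strand use is not stated, these levels are uncertain where the partner is transcribed. Among the genes that rose, this holds for *Nusap1*, for *Ckap2l* with the antisense gene *Gm14024*, for *Ube2c* with *Tnnc2*, and for *Top2a* and *Ncapd2*, which hold a gene on their own strand. *Ccnb1* and *Ccnb2* have annotated pseudogenes named after them, which could share reads, though their sequences were not compared. Pseudogenes under other names were not searched for. *Cenpa* (chromosome 5, 30666777 to 30674830), *Cenpe* (chromosome 3, 135212537 to 135273611), *Mki67* (chromosome 7, 135689788 to 135716379), *Ndc80* (chromosome 17, 71496100 to 71526857), *Kif11* (chromosome 19, 37376403 to 37421859) and *Kif20b* (chromosome 19, 34922358 to 34975731) share no exon bases with another annotated gene.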

How the data were processed

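RNA was sequenced from sorted ISCs in 12 libraries of 4 groups, with groups taken from the labels and the treatments from the methods of the study. The methods name alignment of 150-bp read pairs with HISAT2 2.0.5, counting with featureCounts 1.5.0-p3 and tests with DESeq2 1.20.0, whereas the submitters' processing notes name HISAT2 2.2.1 and StringTie 2.2.1 with build mm10. The authors deposited 1 table of estimated counts per gene for all libraries, and its values have the form that StringTie's counting script writes, so that 1 read pair makes up to 4 counts. They also deposited FPKM per gene, which is per length and per library size, and coverage as a signal per base, which was not used here for any result. No column was left without a sample (0 columns). Whether each library is a different mouse is not stated for every library, so p-values measure the spread between these libraries.
Estimated counts, rounded to whole numbers, were tested with edgeR 4.0.16 in R 4.3.3 (quasi-likelihood F-test, TMM scaling, filterByExpr, 6 libraries per comparison, 12 for the difference of effects), with Benjamini-Hochberg adjustment over 13722, 14656, 13642 and 14415 genes and a threshold of 0.05. The tests were two-sided. Standard errors (SE) of fold changes were taken as the absolute log2 value over the root of F. The steps were tested on simulated data. A level of 3 read pairs equals 0.182 to 0.74 CPM by library, and the lowest level of a member was 10.7 CPM. This covers counting error only.
The members, their roles, the 137 further genes and the markers were chosen with earlier results of these data known. Members named are those past the threshold, the 5 smallest p-values in each test, and the leader of each role by FPKM in Ctrl or by fold change. Further genes named are those past the threshold, up to 6 per comparison, with *Foxm1* and *Mybl2*. *Sgo1*, *Sgo2a*, *Knl1* and *Pimreg* were matched by gene identifier under older symbols. Alternatives were DESeq2 1.42.0, its size factors, other filters on low counts, limma 3.58.1 on log2(FPKM + 1) or log2(FPKM + 0.1) with a mean FPKM of at least 1, 1 fit on 12 libraries, each library left out in turn and, chosen after seeing the data, counts thinned to the smallest library.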

Additional observations from a re-analysis of the deposited data

Results flagged for a closer look

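In 3 of the 137 further genes every stress library lay below every Ctrl library while every CORT library lay above every vehicle library (2.19%), against 0.55% of the 13627 genes tested in both comparisons. *E2f1*, an activator of S phase genes, had log2 fold changes of -0.35 in stress and 0.42 in CORT, a difference of -0.77 (edgeR, adjusted p = 0.0782). *Tfdp1*, the partner with which E2F factors bind DNA, had -0.20 and 0.12, a difference of -0.33 (adjusted p = 0.249). *Anapc13*, a subunit of the anaphase-promoting complex, had -0.26 and 0.28, a difference of -0.54 (adjusted p = 0.112). None of these 3 differences passed the threshold of the test over the 12 libraries.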

How the results depend on the processing

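No paired analysis was possible because the groups compared share fewer than 2 replicate numbers. Brackets below give the share of all genes called higher in the same fit. In stress, the number of the 46 genes called higher was 8 with DESeq2's size factors (1.3%), 10 with at least 10 counts in every library (1.77%) and 7 with thinned counts (1.35%). It was 20 with DESeq2 (2.94%), 18 in 1 fit on all 12 libraries (2.14%), and 2 on log2(FPKM + 1) (0.484%) and on log2(FPKM + 0.1) (0.476%). Without a filter on low values it was 0 on counts (0.169%) and on log2(FPKM + 1) (0.0819%). With 1 library left out it ran from 0 to 15 (0.297% to 3.94%), and the median from 0.31 to 0.41. In CORT the number was 15 with DESeq2 (5.64%) and with at least 10 counts (4.44%), 13 without a filter (2.59%), 11 with thinned counts (3.85%) and 9 in 1 fit (3.8%). It was 4 on either FPKM scale (2.62% and 2.58%) and 0 on log2(FPKM + 1) without a filter (0.964%). With 1 library left out it was 2 to 6, while the share of all genes ran from 1.56% to 3.17%. The CORT median was 0.187 on log2(FPKM + 1) with and without a filter, 0.193 on log2(FPKM + 0.1), and 0.19 to 0.28 with 1 library left out. Between vehicle and Ctrl the count was 0 in every setting (0 to 1.31%), with a median from -0.03 to 0.07 with 1 library left out. For the difference of effects the count was 1 of 46 with DESeq2 (1.84%) and 0 elsewhere (0.0271% to 1.23%), with a median from 0.08 to 0.18. The cause of these changes was not tested. Over these settings 43 to 46 genes were higher in stress and 37 to 40 in CORT, and none was called lower in any. With 1 library left out the sign turned for 4 genes in stress, namely *Tacc3* (-0.036 without Ctrl 3 and -0.0045 without stress 1+2, up to 0.11), *Gtse1* (-0.061 to 0.16), *Lbr* (-0.049 to 0.051) and *Cdca8* (-0.0094 to 0.25). In CORT it turned for 6 genes, namely *Kif23* (-0.096 to 0.0046, the latter without vehicle 5), *Ect2* (-0.021 without vehicle 6 to 0.29), *Ccnb1* (-0.0036 without CORT 5 to 0.13), *Cdc25c* (-0.15 to 0.032), *Cdca8* (-0.052 to 0.12) and *Psrc1* (-0.15 to 0.089). None of these genes passed the threshold in that comparison in edgeR on all libraries.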
